A study of Mus musculus with 16 samples.

Results

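Inflammatory or progenitor-like fibroblasts of mouse mammary tumours were selected here from single-cell counts by 14 genes and described across the rest of their transcriptome. A cell barcode was a member when it had 450 to 4000 detected genes, under 20% mitochondrial transcripts, 10 or more unique transcript counts (UMIs) of *Col1a2* plus *Col3a1*, no UMI of the pericyte gene *Rgs5*, and 3 or more UMIs summed over *Clec3b*, *Pi16*, *Ly6c1*, *C3*, *Efemp1* and *Penk*. It also had at most 2 UMIs of the smooth muscle genes *Acta2* plus *Tagln* and under 2 of the endothelial genes *Cdh5*, *Emcn* and *Pecam1*. These conditions left 163 members of 4798 cells, and of the 511 cells with 10 or more collagen UMIs.

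The cells came from end-stage tumours of untreated female FVB/n mice, measured by Drop-seq, in which barcoded beads in droplets capture the 3′ ends of the transcripts of single cells. WB1P mice (WapCre;Brca1F/F;Trp53F/F) lose *Brca1* and *Trp53* where Cre is driven by the milk-protein promoter *Wap*, that is, in mammary epithelium. WB1P-Myc mice (WapCre;Brca1F/F;Trp53F/F;Myc) additionally switch on a Cre-dependent *Myc*-IRES-luciferase construct at the *Col1a1* locus, so that the epithelium and not the fibroblasts is the intended site of every allele. The age of the mice was not given in the sources used here. Live, DAPI-negative single cells were sorted, and 4 droplet fractions of 5 min each were taken from 1 suspension per model, so that each model stands for 1 sample. More than 1 mouse per model was used by the study, but no fraction was tied to a mouse, the spread over fractions is technical, and model and droplet session cannot be told apart. No p-value is therefore given for any difference between models. The intervals given are 95% exact intervals that cover counting error only.

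Fibroblasts make and remodel the connective tissue of the mammary gland and, around a tumour, are called cancer-associated fibroblasts (CAFs). Myofibroblastic CAFs (myCAFs) carry contractile filaments, whereas inflammatory CAFs (iCAFs) secrete cytokines, complement and other soluble proteins. In many healthy tissues, fibroblasts with *Pi16*, *Dpp4* and *Cd34* lie in the adventitia around vessels and in the interstitium, and are regarded as a reservoir from which more specialised fibroblasts derive.

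The upstream sequences of 4 genes that recur below are shown first, 3 of them high in the members relative to myofibroblastic fibroblasts (*Saa3*, *Ptx3* and *Steap4*) and the other, *Il6*, one that differed between the models. The pentraxin *Ptx3* and serum amyloid A3 (*Saa3*) are secreted acute-phase proteins, *Steap4* is a metalloreductase induced by inflammatory cytokines, and *Il6* encodes interleukin-6. Each line gives the 150 bases before the RefSeq transcript start (GRCm38.p6, 5′ to 3′ on the gene's strand), with the letters TTGCNNAA, on either strand, in capitals. These are the core letters bound by C/EBP factors, and the genes were chosen, after their values were seen, because they hold them.
Saa3: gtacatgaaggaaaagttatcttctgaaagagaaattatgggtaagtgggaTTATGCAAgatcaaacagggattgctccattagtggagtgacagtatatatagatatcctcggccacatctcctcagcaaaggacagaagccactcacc
Ptx3: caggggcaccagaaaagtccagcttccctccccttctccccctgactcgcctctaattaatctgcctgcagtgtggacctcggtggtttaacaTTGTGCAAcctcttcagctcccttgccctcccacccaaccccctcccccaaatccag
Steap4: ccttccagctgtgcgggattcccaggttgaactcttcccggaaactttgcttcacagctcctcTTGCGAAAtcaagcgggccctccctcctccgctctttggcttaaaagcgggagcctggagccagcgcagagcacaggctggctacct
Il6: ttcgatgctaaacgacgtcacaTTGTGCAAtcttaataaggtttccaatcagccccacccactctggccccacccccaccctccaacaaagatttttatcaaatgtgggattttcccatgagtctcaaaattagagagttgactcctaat
The *Saa3* stretch lies at chr7:46715677-46715826 on the minus strand, that of *Ptx3* at chr3:66219737-66219886, that of *Steap4* at chr5:7960322-7960471 and that of *Il6* at chr5:30012964-30013113, the last 3 on the plus strand. The first capital stands at position -99 of *Saa3*, -57 of *Ptx3*, -87 of *Steap4* and -128 of *Il6*, counted from the transcript start. Within 250 bases before the start, 9.56% of all 32851 listed promoters held these letters. Of the 15 genes highest in the members relative to myofibroblastic fibroblasts, 11 had a listed promoter, and 3 of these held the letters (*Dpt*, *Saa3* and *Steap4*). Of the other 4 motifs searched on both strands, the AP-1 letters TGANTCA stood in 6.75% of all promoters and in those of *Reg1* and *Tnxb*, and a loose κB motif, with any base at its 5 central positions, in 45.8% of all and in 5 of the 11. A strict κB motif (0.28% of all) and the serum response element (0.0609%) stood in none of the 11. A match describes the letters and not a binding site, and the motifs may overlap one another.

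The members numbered 61 of 1307 cells in WB1P, 4.67% (3.59 to 5.96), and 102 of 3491 in WB1P-Myc, 2.92% (2.39 to 3.54). The 4 WB1P fractions held 1, 18, 17 and 25 members and the 4 WB1P-Myc fractions 31, 21, 26 and 24. The share per fraction was 4.00% ± 1.82 (SD, n = 4 fractions) in WB1P and 2.94% ± 0.502 (SD, n = 4 fractions) in WB1P-Myc. WB1P fraction 1 had only 65 cells passing the filter, so its single member was left out of gene levels given per fraction, which rest on 3 and 4 fractions. Among cells with 10 or more collagen UMIs, the members took similar shares in both models, 31.1% (24.7 to 38.1) of 196 cells in WB1P and 32.4% (27.2 to 37.9) of 315 in WB1P-Myc. The shares of all cells can be set by how many cells of other kinds were sorted and captured.

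The members held 516895 UMIs in all, with a median of 2659 UMIs and 1251 genes per cell, against a median of 2151.5 UMIs over all 4798 cells. Their median was 2347 UMIs in WB1P and 2811 in WB1P-Myc. Levels are given as UMIs per 1000000 of a class's own pooled UMIs (UPM). The tables count transcripts from their 3′ ends, so these levels carry no gene length term. None of the member barcodes was listed in another fraction. *Ly6c1*, *C1ra*, *C1s1* and *Cd59a* each have a close paralogue, and how the counting divided reads between such copies was not given, so their levels are uncertain.

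The 6 selecting genes were unevenly distributed over the members. *Efemp1* had a UMI in 71.8% of them, *Ly6c1* in 69.3%, *C3* in 65.0%, *Clec3b* in 63.8%, *Pi16* in 49.7% and *Penk* in 32.5%. Of the 163 members, 38 had a UMI of only 1 or 2 of these genes, 86 of 3 or 4, and 39 of 5 or 6. Their summed count had a median of 10 and ran from 3 to 62. At the edge of the rule, 18 members had a sum of exactly 3, and 25 otherwise matching cells were left out with a sum of 2. Likewise, 8 members had 2 UMIs of *Acta2* plus *Tagln*, and 3 cells with 3 such UMIs were left out. These counts follow from the rule.

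Genes of other cell types were at low levels in the members. The macrophage list of 9 genes summed to 253 UPM in the members, 125 in the myofibroblastic class and 18916 in macrophages themselves, and its *Ptprc* had 3 UMIs in 2 members. By fraction it ran from 79.2 to 565 in WB1P and from 107 to 397 in WB1P-Myc, and all 9 genes had a UMI when the fractions were pooled. The epithelial list of 8 genes summed to 163 UPM, against 4329.6 in epithelial tumour cells, with all 8 genes detected. A UMI of the macrophage list was found in 61 members (37.4%) and of the epithelial list in 59 (36.2%). Both lists had a UMI in 37.3% of myofibroblastic cells. Without members that had a *Ptprc*, *C1qa*, *Epcam* or *Krt8* UMI, the members' share was 3.21% in WB1P and 2.43% in WB1P-Myc. Of the endothelial list 6 of 8 genes were detected, at 31.0 UPM together, and *Kdr* and *Tie1* were at 0. Of the 9 T and NK genes, *Cd3e* had 30 UMIs in 14 members while *Cd3g*, *Cd8a*, *Nkg7* and *Gzma* were at 0. Of the adipocyte genes only *Plin1* was seen, with 2 UMIs, and *Adipoq*, *Cidec*, *Lep* and *Retn* were at 0. The 5 mesothelial genes had 16 UMIs in 14 members (31.0 UPM, against 22.6 in the myofibroblastic class), of which *Upk3b* and *Lrrn4* had none and *Msln* 1. The Schwann cell genes summed to 145 UPM, with 75 UMIs in 31 members. In all, 3 members held 10 or more UMIs of 1 or more of these lists, with at most 24 macrophage, 19 Schwann cell and 76 MHC class II UMIs in a cell. No doublet caller was run. In the lists described below, most adventitial and complement genes were higher than in myofibroblastic fibroblasts. This is no independent check of the label, since the 6 selecting genes, which set both classes, favour that direction. The parenchymal list (7 of 11 genes) and the pan-fibroblast list (7 of 12) were mostly higher as well. The other 222 collagen-high cells were not compared.

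The 15 most abundant transcripts of the members included those of matrix and secreted proteins, of the immediate early genes described below, and of the housekeeping genes *Actb* (3471 UPM) and *Pabpc1* (3397 UPM) and the chaperone *Hsp90b1* (2836 UPM). Apart from the nuclear RNA *Malat1*, the highest level was that of *Sparc*, a collagen-binding matricellular protein, at 13666 UPM (13349 to 13989). It was followed by *Col1a1*, a chain of type I collagen, at 7058 UPM, the collagen-fibril proteoglycan *Dcn* at 6404 UPM, *Fstl1* at 4005 UPM and *S100a6* at 3585 UPM. The chemerin precursor *Rarres2* stood at 2960.0 UPM, the carboxypeptidase-like *Cpxm1* at 2856 UPM, periostin (*Postn*) at 2768 UPM, and metallothionein 1 (*Mt1*), which binds zinc and copper, at 2765 UPM. The immediate early genes *Egr1* (3258 UPM) and *Fos* (2705 UPM), which tissue dissociation is known to induce, were also among the 15 highest. Their levels were 1674 and 1975 UPM in the myofibroblastic class and 664 and 1592 in epithelial tumour cells, and the part of dissociation in them was not tested.

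Against the 4287 cells with under 10 collagen UMIs, the members stood apart most in *Reg1*, a secreted C-type lectin, by 729-fold, *Tnxb* by 448-fold, the adhesion receptor *Gpr133* by 435-fold and dermatopontin (*Dpt*) by 418-fold. *Sfrp4*, *C1s1*, *Reg3g*, *Ifi205*, *Rarres2* and the sodium channel *Scn7a* completed the 10 highest, between 333 and 401-fold. These ratios were chosen for their size, and collagen genes set both classes. *Reg3g* rested on 6 members, 1 of which held 24 of its 57 UMIs, whereas *Ifi205* was found in 122 members and *Dpt* in 129.

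The members were compared with myofibroblastic fibroblasts of the same tumours. These were 126 cells under the same collagen, *Rgs5* and endothelial conditions with 3 or more UMIs of *Acta2* plus *Tagln* and at most 2 of the 6 selecting genes. They were deeper, with a median of 4068.5 UMIs, and made up 56 WB1P and 70 WB1P-Myc cells. Both classes were cut by measured genes, so the differences between them are a description. Of 3436 genes with 50 or more UMIs over both classes, leaving out the 14 genes of the rule, 304 (8.85%) were 2-fold or more higher in the members and 277 (8.06%) 2-fold or more lower. The median log2 ratio over these genes was -0.17, and a scaling that sets it to 0 shifts every ratio below up by that amount. With DESeq2 scaling factors, 372 genes were higher and 190 lower. When each cell was thinned to 1000 UMIs, which leaves fewer UMIs, 124 were higher and 84 lower.

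Several abundant genes of the lists differed little between the classes. *Sparc* was at 13666 UPM in the members and 13885 UPM in the myofibroblastic class, and *Col1a1* at 7058 UPM and 6845 UPM. *Fbln2* (log2 ratio 0.01), the collagen crosslinker *Lox* (0.09), *Postn* (-0.09), biglycan (*Bgn*, -0.10) and the transcription factor *Prrx1* (0.05) were other examples. In the fraction values of *Sparc* the classes overlapped, from 11225 to 16165 in the members and from 11721 to 15499 in the myofibroblastic class.

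Among the genes highest in the members relative to the myofibroblastic class, *Tnxb*, which encodes tenascin-X, a protein that links collagen fibrils in loose connective tissue, was at 449, 287 and 298 UPM in the WB1P and 146, 107, 169 and 169 in the WB1P-Myc fractions, and a single UMI was found in the myofibroblastic class (log2 ratio 6.85, 4.35 to 12.17). The proteoglycan-cleaving protease *Adamts15* was at 158, 123 and 235 UPM in the WB1P and 185, 155, 228 and 84.5 in the WB1P-Myc fractions, with 1 UMI in the myofibroblastic class (log2 ratio 6.66, 4.15 to 11.98). Every member fraction was above every myofibroblastic one for both genes. *Sfrp4*, a secreted Wnt antagonist, was at 423, 205 and 94.2 UPM in the WB1P and 496, 358, 919.7 and 439 in the WB1P-Myc fractions, and ranged from 0 to 16.4 in the myofibroblastic fractions (log2 ratio 6.52, 4.96 to 8.81). Lubricin (*Prg4*), a lubricating glycoprotein of joints and tissue planes, was even between fractions, at 502, 573 and 549 UPM in the WB1P and 525, 787, 439 and 507 in the WB1P-Myc fractions, and was detected in 82 members. *Dpt*, which promotes collagen fibril assembly, was at 2905, 2068 and 1067 UPM in the WB1P and 1225, 1192, 1342 and 1893 in the WB1P-Myc fractions, and from 0 to 145 in the myofibroblastic class, a 16.9-fold ratio. *Dpt* had a UMI in 63.9% of members and 7.26% of myofibroblastic cells when each cell was thinned to 1000 UMIs (155 and 124 cells deep enough, 8 and 2 left out), and in 0.444% of 900 epithelial tumour cells. Without thinning the shares were 79.1% of members, 19.05% of myofibroblastic and 0.778% of epithelial tumour cells, and the median depths of the 3 classes were 2659, 4068.5 and 2945.5 UMIs.

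Some of the highest ratios rested on few cells. *Saa3* reached 1656 UPM in the members against 17.4 UPM in the myofibroblastic class, but its fractions spread over 0, 102 and 2244 UPM in the WB1P and 5145, 644, 143 and 1825 in the WB1P-Myc fractions. Its 856 UMIs lay in 29 members and 325 of them in 1 cell, without which the log2 ratio was 5.90 instead of 6.57. *Reg1* also lay in 29 members, at 106, 0 and 659 UPM in the WB1P and 496, 381, 262 and 152 in the WB1P-Myc fractions, and overlapped the myofibroblastic fractions. *Steap4* was more widely spread, with 66 UMIs in 35 members and 1 in the myofibroblastic class (log2 ratio 6.20, 3.67 to 11.52). The myofibroblastic UMI of *Tnxb*, *Adamts15* and *Steap4* lay in 1 fraction each (WB1P-Myc fraction 3, WB1P fraction 3 and WB1P-Myc fraction 2). Without that fraction, and with the 0 taken as 3 counts, their log2 ratios were 5.12, 4.96 and 4.09. In WB1P alone, that of *Steap4* was 1.95 on the same terms. The others of the 15 highest were the serine protease-like *Pamr1* (5.26, 3.36 to 8.34), the glutathione transferase *Gstm1* (4.55), the Kit ligand *Kitl* (4.44), *Cd34* (4.34), the extracellular *Sned1* (4.25), the adhesion molecule *Chl1* (4.18) and *Ltbp1* (4.18), which binds latent TGFβ. In the plot of 30 genes by fraction, 13 of these 15 were above the myofibroblastic value of the same fraction in all 7 fractions, and *Saa3* and *Reg1* in 6.

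**Figure D1:**
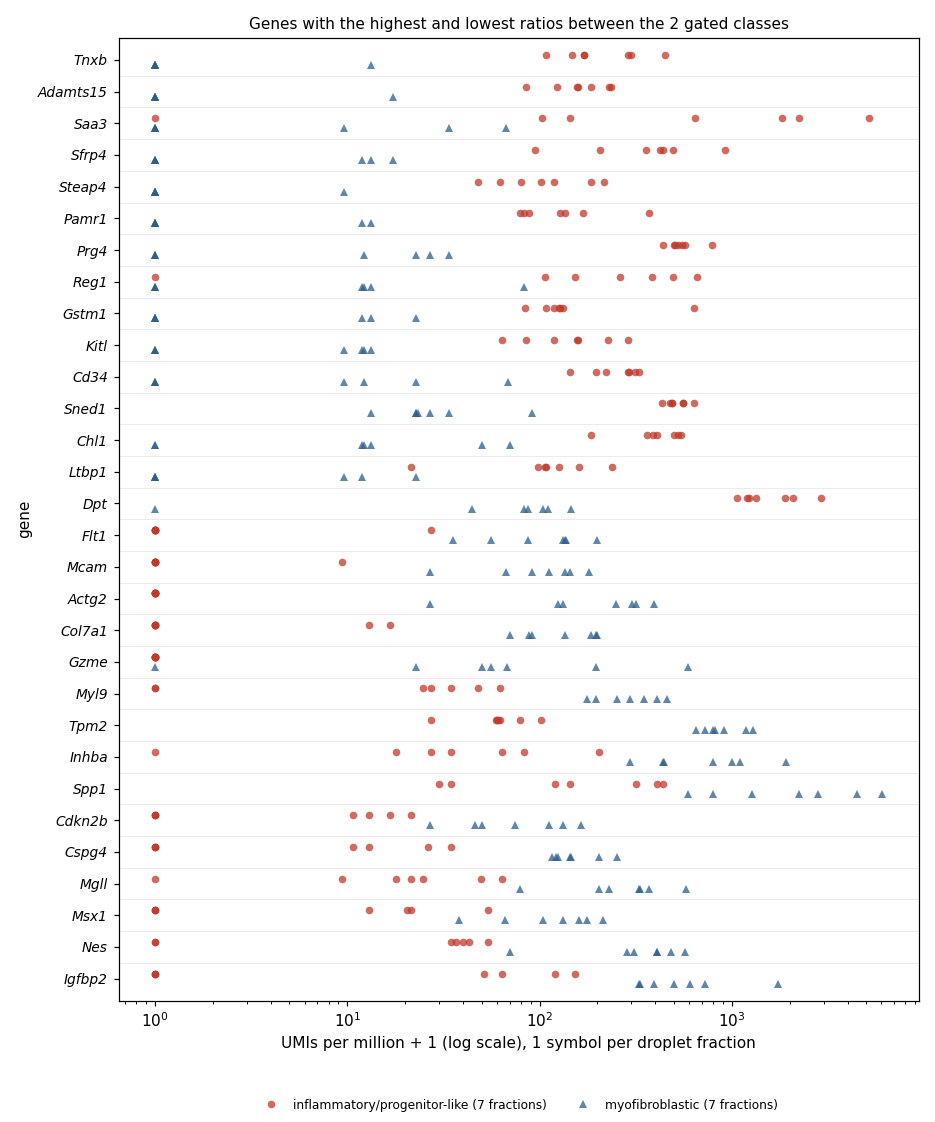
Levels in UPM plus 1 (log axis) of the 15 genes with the highest and the 15 with the lowest ratio, 1 symbol per droplet fraction with 10 or more members, for members (circles) and myofibroblastic fibroblasts (triangles). Symbols at the left edge are fractions without a UMI, and all 7 member fractions of *Dpt* lie between 1067 and 2905.

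The 15 genes lowest in the members were of varied kinds, with *Actg2*, *Myl9* and *Tpm2* belonging to the contractile apparatus. *Actg2*, the enteric smooth muscle actin, had no UMI in any member and 116 in the myofibroblastic class, so it was at least 34.7-fold lower. *Gzme*, a granzyme, also had none and was 16.5-fold lower on the same terms. Tropomyosin 2 (*Tpm2*) was at 26.4, 61.4 and 78.5 UPM in the WB1P and 58.4, 59.6, 59.1 and 101 in the WB1P-Myc fractions, and its myofibroblastic fractions ran from 649 to 1294. *Inhba*, the activin A subunit, was at 58.0 UPM against 770.0 UPM, and 11 of its 30 member UMIs lay in 1 cell. The smooth muscle light chain *Myl9* (-3.82), the cell cycle inhibitor *Cdkn2b* (-3.52), the proteoglycan *Cspg4* (-3.51), *Mgll* (-3.49), *Msx1* (-3.45), nestin (*Nes*, -3.38) and *Igfbp2* (-3.24) were lower in all 7 fractions. *Flt1* (-5.75, -11.08 to -3.22), *Mcam* (-5.70, -11.03 to -3.17) and *Col7a1* (-5.11, -8.18 to -3.21) were also lower, with only 1, 1 and 2 UMIs in the members. Several of these genes are also expressed by vessel cells, with *Flt1* at 1199.7 UPM in endothelial cells and *Cspg4* at 308 UPM in pericyte-like cells. The pericyte list of 7 genes summed to 75.5 UPM in the members and 295.5 in the myofibroblastic class, against 1900.3 in pericyte-like cells, and 2 of its 2 measurable genes (*Cspg4* and *Mcam*) were lower in the members. The endothelial list summed to 31.0 UPM in the members and 132 in the myofibroblastic class, and the part of such RNA in these ratios was not tested. Osteopontin (*Spp1*) was at 178 UPM in the members and 2354 UPM in the myofibroblastic class. It reached 3033 UPM in macrophages and 2508 in epithelial tumour cells of the same suspensions, and the part of free RNA in its member level was not tested.

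The gene lists showed how the members differed by function. Of the 9 measurable complement and acute-phase genes, those with 50 or more UMIs, 7 were 2-fold or more higher in the members and 1 lower, with a median log2 ratio of 2.59. The complement proteases *C1ra* (2.59) and *C1s1* (2.92), complement *C4b* (3.83), the C1 inhibitor *Serping1* (2.14) and ceruloplasmin (*Cp*, 3.41), a copper-carrying ferroxidase, were all higher. *C4b* was at 1822, 1187 and 1585 UPM in the WB1P and 817, 560.3, 818 and 693 in the WB1P-Myc fractions, and from 0 to 115 in the myofibroblastic fractions, which did not overlap. The exception, *Cd59a*, shields cells from complement lysis and had a log2 ratio of -2.49. Complement factor D (*Cfd*) had no UMI in either class, and 3 counts in the members would be 5.80 UPM. *Ptx3*, chosen after its values were seen, was at 2007, 1761 and 2024 UPM in the WB1P and 759, 846, 726 and 879 in the WB1P-Myc fractions, 16.1-fold above the myofibroblastic class.

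Of the 16 measurable genes of the adventitial progenitor list, 13 were 2-fold or more higher and none lower, and 3 differed less (*Anxa3*, *Mfap5* and *Axl*). *Ly6a*, the stem cell antigen Sca-1, stood at 1769.6, 1658 and 926 UPM in the WB1P and 2023, 1323, 1561 and 2129 in the WB1P-Myc fractions against 22.7 to 164 in the myofibroblastic fractions. The complement-regulating *Cd55* (4.08), the semaphorin *Sema3c* (3.51), the chemokine-scavenging receptor *Ackr3* (2.45) and the collagen-processing enhancer *Pcolce2* (2.57) were among the higher genes. *Dpp4* itself was sparse, with 26 UMIs in 15 members. Of the 20 genes of the list, *Dpp4*, *Creb5*, *Procr* and *Pcsk6* were too sparse to be counted. The list for parenchymal, *Col15a1*-type fibroblasts also had 7 of 11 genes 2-fold or more higher and none lower, among them lipoprotein lipase (*Lpl*, 2.94), apolipoprotein D (*Apod*, 3.70) and glypican 3 (*Gpc3*, 2.65). *Col15a1* itself had a log2 ratio of -0.88 and was lower in all 7 fractions.

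Collagens and proteoglycans divided between the classes. Of 17 measurable genes of collagens and adhesive matrix, 1 was 2-fold or more higher in the members, 6 were lower and the median was -0.30. The higher one was *Col14a1*, a collagen that decorates fibrils, at 1215, 1187 and 722 UPM in the WB1P and 681, 775, 641 and 862 in the WB1P-Myc fractions against 98.5 to 245 in the myofibroblastic fractions. The lower ones were *Col8a1* (-1.84), *Col11a1* (-2.11), *Col12a1* (-1.48), tenascin-C (*Tnc*, -2.54) and the thrombospondins *Thbs1* (-1.44) and *Thbs2* (-1.05). The 2 tenascins stood opposite, with *Tnxb* near-absent from the myofibroblastic class and *Tnc* at 304 UPM in the members against 1771 UPM. Of 10 measurable proteoglycan genes, 5 were higher, namely *Dcn* (3.06), *Lum* (1.65), *Ogn* (2.60), *Prelp* (2.54) and *Podn* (1.50), while *Fmod* (-1.53) and the hyaluronan synthase *Has2* (-1.40) were lower. *Dcn* was at 8584, 6736 and 5696 UPM in the WB1P and 6730.5, 5424, 5856 and 7588 in the WB1P-Myc fractions, 8.33-fold above the myofibroblastic class. Of 12 elastic fibre genes 2 were higher, *Fbln1* (1.13) and *Ltbp4* (1.77), and 10 were within 2-fold.

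**Figure D2:**
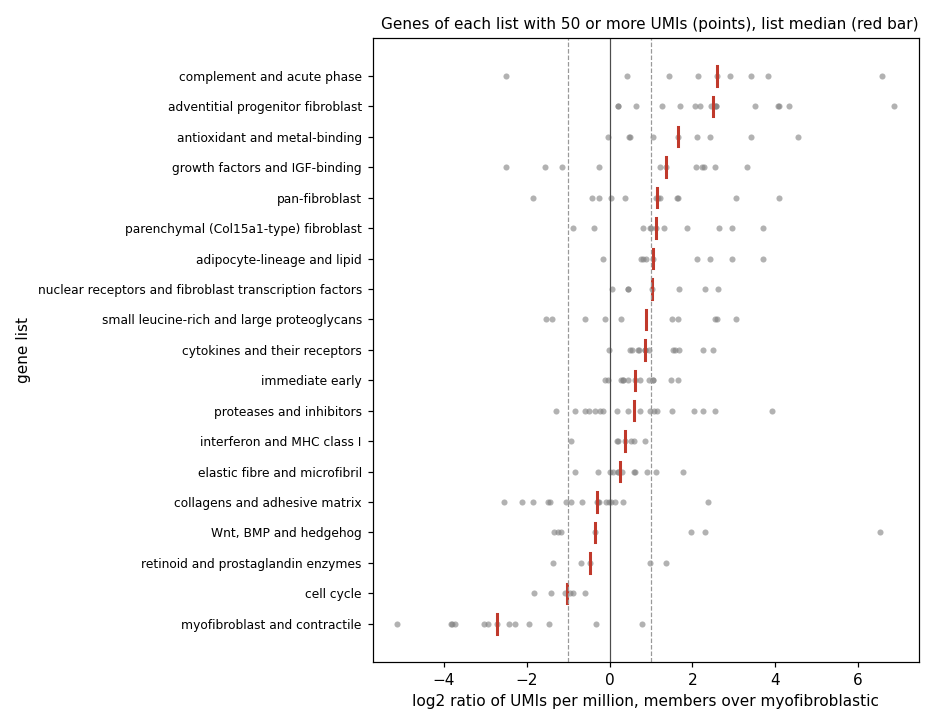
Log2 ratio of UPM, members over myofibroblastic fibroblasts, for each gene with 50 or more UMIs over both classes in 19 gene lists (points), with the list median (red bar) and 2-fold lines (dashed), with *Actg2*, at 0 in the members, drawn with the 0 taken as 3 counts. The complement and acute-phase list has the highest median, 2.59, and the contractile list the lowest, -2.72.

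Growth-factor signalling genes differed in both directions. Insulin-like growth factor 1 (*Igf1*), a mitogen for epithelium, was at 687, 901 and 1789 UPM in the WB1P and 1429.7, 1049, 1924 and 1791 in the WB1P-Myc fractions, and from 197 to 441 in the myofibroblastic class. Of the proteins that bind it, *Igfbp4* (2.08), *Igfbp5* (2.24) and *Igfbp6* (2.55) were higher in the members, and *Igfbp2* (-3.24), *Igfbp3* (-2.49) and *Igfbp7* (-1.57) were lower. *Figf*, which encodes the lymphatic growth factor VEGF-D, was higher (3.31) and *Vegfa* lower (-1.14). The secreted Wnt antagonists *Sfrp1* (2.31) and *Sfrp2* (1.95) were higher along with *Sfrp4*, whereas *Wnt5a* (-1.33) and *Dkk3* (-1.18) were lower. The growth-factor list had 7 of 11 measurable genes higher and 3 lower, and the Wnt, BMP and hedgehog list 3 of 7 each way.

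Among proteases, 7 of 18 were 2-fold or more higher in the members and only the inhibitor *Timp1* was lower (-1.29). Stromelysin 1 (*Mmp3*) was at 1189, 1802 and 3123 UPM in the WB1P and 2840.0, 1812, 2379.5 and 1572 in the WB1P-Myc fractions, and overlapped the myofibroblastic class through 1 WB1P fraction at 2831. The aggrecanase *Adamts5* was at 792, 429.9 and 471 UPM in the WB1P and 593, 358, 439 and 575 in the WB1P-Myc fractions, against 0 to 89.3. Of 9 genes of antioxidant and metal-binding proteins, 6 were higher and none lower, among them gelsolin (*Gsn*, 2.43), *Mt1* (1.66), *Mt2* (2.12) and extracellular superoxide dismutase (*Sod3*, 1.05). Of 9 lipid and adipocyte-lineage genes 5 were higher, namely *Lpl*, *Apod*, *Fabp4* (2.42), *Apoe* (2.11) and the adipogenic factor *Cebpd* (1.05), while *Pparg* had 7 UMIs and *Adipoq* none. Of 13 cytokine and receptor genes 5 were higher, namely *Il6* (2.27), *Cxcl5* (2.50), *Il1r1* (1.59), *Il11ra1* (1.52) and *Il6st* (1.68), so both the cytokine interleukin-6 and its signalling subunit were included. The transcription factors *Osr1* (2.61), *Nfib* (1.67) and *Klf9* (1.03) were among the 4 of 7 measurable genes of their list that were higher.

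Of 12 pan-fibroblast genes 7 were higher and *Pdgfrb* was lower (-1.85), in contrast to *Pdgfra* (1.62). Of 13 measurable contractile and myofibroblast genes 11 were lower and none higher, a direction the *Acta2* and *Tagln* conditions favour. Of 13 immediate early genes 4 were higher, with *Atf3* at 1.66. Interferon and MHC class I genes had all 7 measurable genes within 2-fold. Of 6 cell cycle genes 3 were lower and none higher, and of 5 retinoid and prostaglandin genes 1 was higher and 1 lower. No MHC class II gene reached 50 UMIs over both classes, and 76 of the 107 class II UMIs of the members lay in 1 cell.

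The members varied among themselves. *Pi16* and *C3* were found together in 56 cells, *Pi16* alone in 25, *C3* alone in 50 and neither in 32. *Penk*, which encodes the opioid precursor proenkephalin, was shared with *Pi16* in 24 cells and with *C3* in 28. The rule required 3 UMIs over the 6 genes, so a cell without one of them had to carry others, and no relation among the 6 is read from these counts. Cells with and without each gene were compared in all other genes with 50 or more UMIs, and the 8 with the highest lower limit and the 8 with the lowest upper limit, in the same direction in both models, are plotted. These pools share cells, and the cells are not replicates.

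The 81 members with a *Pi16* UMI had more of the axon guidance gene *Sema3c*, at 419 against 61.2 UPM in the 82 without. When each cell was thinned to 1000 UMIs, *Sema3c* was seen in 27.6% of 76 and 5.06% of 79 cells. *Igfbp5* (log2 ratio 2.21), the annexin *Anxa3* (2.39), *Ackr3* (1.62) and *Cilp* (1.34) were also higher. *Ctgf* (2.47) and *Saa3* (2.82) were higher too, but 21 of 77 and 325 of 856 UMIs lay in 1 cell. The fatty acid carrier *Fabp4* was 10.00-fold lower, at 35.2 against 352 UPM, and *Col11a1* and *Sparcl1* were lower by 1.63 and 1.57 on the log2 scale. Taken within models, the log2 ratio of *Cilp*, itself lower in WB1P-Myc, was 1.00 in WB1P and 0.94 in WB1P-Myc, that of *Ctgf* was 0.62 in WB1P and 3.27 in WB1P-Myc, and that of *Sparcl1* was -0.79 in WB1P and -1.62 in WB1P-Myc. The *Pi16* cells made up 39 of 61 members in WB1P (63.9%, 50.6 to 75.8) and 42 of 102 in WB1P-Myc (41.2%, 31.5 to 51.4).

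The 106 members with a *C3* UMI had a higher level of the chemokine *Cxcl12*, at 1080.0 against 148 UPM, and of the lipopolysaccharide-binding protein *Lbp*, at 592 against 136. *Cpxm1* (1.69), *Sned1* (1.89), *Sfrp1* (1.60) and *Reg1* (2.46) were higher as well. *Cp* had 67 UMIs in these cells and none in the others, so it was 10.2-fold higher with the 0 taken as 3 counts. The lower limit of its log2 ratio by the counting interval was 3.02. The 57 members without *C3* had more of *Ptn* (-1.75), the imprinted RNA *H19* (-1.78), the nucleolar *Nop56* (-1.59), the nucleotide kinase *Nme1* (-1.18) and cytochrome c (*Cycs*, -1.35), each given as the log2 ratio of cells with over cells without *C3*. *H19* had 62 of its 247 UMIs in 1 member. Within models, *Ptn* was at -4.57 in WB1P and -0.45 in WB1P-Myc, *Nme1* at -0.22 in WB1P and -1.37 in WB1P-Myc and *Cycs* at -0.62 in WB1P and -1.45 in WB1P-Myc.

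In the 53 members with a *Penk* UMI, *Sema3c* (-2.31) and *Igfbp5* (-1.79), which were higher with *Pi16*, and *Reg1* (-1.70), which was higher with *C3*, were lower than in the 110 without. Cells without *Penk* had to qualify through the other selecting genes. *Pi16* (-0.96), *Ly6c1* (-0.80) and *Clec3b* (-0.73) were lower in the *Penk* cells as well. The rule thus favours opposed directions for genes that go with *Pi16*, and its part in them was not tested. *Fabp4* was lower with *Penk* (-1.62), as it was with *Pi16*. The activin-binding follistatin (*Fst*) was higher, at 249 against 83.2 UPM, as were the phospholipase *Pla1a* (1.40) and clusterin (*Clu*, 3.20), although 29 of 77 *Clu* UMIs lay in 1 cell. Within models, *Fst* was at 0.83 in WB1P and 1.81 in WB1P-Myc and *Pla1a* at 0.67 in WB1P and 1.96 in WB1P-Myc. *Penk* cells took similar shares of the members, 34.4% in WB1P and 31.4% in WB1P-Myc.

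**Figure D3:**
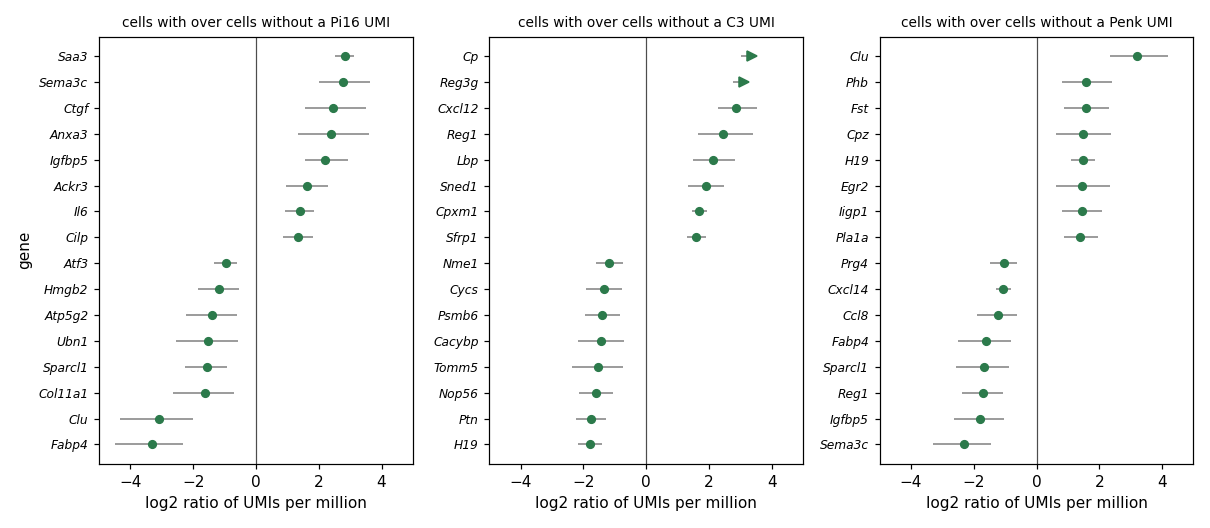
Log2 ratio of UPM between members with and without a UMI of *Pi16* (81 and 82 cells), *C3* (106 and 57) and *Penk* (53 and 110), with 95% intervals for counting error (grey lines) and arrowheads where a gene was at 0 in one pool. *Sema3c* and *Igfbp5* lie right of 0 for *Pi16* and left of 0 for *Penk*, opposed directions that the selection rule favours.

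The members of both models were then compared with each other. Cells with a *Pi16* UMI made up 63.9% of the WB1P and 41.2% of the WB1P-Myc members. The part of this mix in the ratios between models was not tested. Of 1725 genes with 50 or more member UMIs, 83 (4.81%) were 2-fold or more higher in WB1P-Myc and 80 (4.64%) 2-fold or more lower. Every WB1P-Myc fraction was above every WB1P fraction in 151 genes (8.75%) and below in 111 (6.43%). The median log2 ratio was 0.10. The counts of 2-fold differences moved with the settings. When each cell was thinned to 1000 UMIs, 14 were higher and 31 lower. Thinning leaves fewer UMIs, and how many genes then reached 50 is not given, so these counts cannot be read as shares. Without WB1P-Myc fraction 2 or without fraction 3, 53 were higher. Without the members that had a *Ptprc*, *C1qa*, *Epcam* or *Krt8* UMI, 84 were higher and 46 lower. Marker lists of other cell types differed between the members of the models as well. In WB1P and WB1P-Myc members respectively, Schwann cell genes summed to 39.3 and 189 UPM, MHC class II genes to 643 and 24.7 (76 of the 98 WB1P UMIs in 1 cell), mesothelial genes to 85.2 and 8.23, macrophage genes to 341 and 217 and epithelial genes to 256 and 123. Of the 69 Schwann cell UMIs in WB1P-Myc, 19 and 16 lay in 1 cell each, and the mesothelial levels rested on 13 and 3 UMIs. Epithelial tumour cells were above the members as a whole in both lists, at 276 UPM of Schwann cell and 194 of mesothelial genes. The part of these lists in the differences was not tested. The *Myc* gene itself was at 262 UPM in the WB1P members and 115 in the WB1P-Myc members, against 67.0 and 196 in the epithelial tumour cells of the same models.

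Of the genes around hyaluronan, a group assembled after the values were seen, *Has1*, *Ugdh*, *Gfpt2* and *Tnfaip6* were 2-fold or more lower in the WB1P-Myc members. Hyaluronan is a long matrix sugar made at the cell surface by the synthases *Has1* to *Has3* from precursors that *Ugdh* and the *Gfpt* enzymes supply. *Has1* was at 2034, 880.4 and 879 UPM in the WB1P and 302, 238, 203 and 237 in the WB1P-Myc fractions, a log2 ratio of -2.24 (-2.62 to -1.86). *Ugdh* was at 2113, 1740.3 and 1773 UPM in the WB1P and 788, 775, 692 and 558 in the WB1P-Myc fractions, a ratio of -1.36 (-1.61 to -1.11), and *Gfpt2* at 555, 471 and 596 UPM in the WB1P and 165, 119, 177 and 253 in the WB1P-Myc fractions, a ratio of -1.65 (-2.15 to -1.16). *Tnfaip6*, whose protein crosslinks hyaluronan, was at 3196, 2027 and 2244 UPM in the WB1P and 856, 906, 1114 and 1183 in the WB1P-Myc fractions, a ratio of -1.24 (-1.46 to -1.03). For all 4 genes the fractions of the models did not overlap. Of the others, *Ugp2* (0.74) and *Gfpt1* (1.07) lay in the opposite direction and the hyaluronan receptor *Cd44* was at -0.03, all with intervals that reach 0. *Has2* had 14 UMIs and *Has3* none. In the myofibroblastic class the ratio between models was -0.37 for *Has1*, -0.62 for *Ugdh*, 0.23 for *Gfpt2* and 0.02 for *Tnfaip6*. Relative to the myofibroblastic class, *Has1* (2.56), *Ugdh* (2.05), *Gfpt2* (2.17) and *Tnfaip6* (2.48) were all higher in the members.

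Of 11 measurable genes of the cytokine and receptor list, *Il6* was 2-fold or more lower in the WB1P-Myc members, *Il1rl1* higher (2.44) and 9 within 2-fold, with a median log2 ratio of -0.15. The fractions of *Il1rl1* overlapped between the models. *Il6* was at 1347, 450.4 and 1004 UPM in the WB1P and 146, 286, 152 and 152 in the WB1P-Myc fractions, a ratio of -2.31 (-2.76 to -1.88). *Socs3*, the feedback inhibitor of interleukin-6 signalling, was at 343, 512 and 628 UPM in the WB1P and 77.8, 167, 42.2 and 84.5 in the WB1P-Myc fractions, a ratio of -2.54 (-3.18 to -1.93). In the myofibroblastic class the *Socs3* ratio was 0.00 and that of *Il6* -0.77. The interleukin-4 receptor *Il4ra* (-3.02, 44 UMIs), *Zfp36* (-1.36), *Junb* (-1.10) and the C/EBP factors *Cebpb* (-1.21) and *Cebpd* (-1.18) were lower with fractions that did not overlap. *Cebpb* was lower in the collagen-low cells too (-2.38), and *Cebpd* likewise (-1.14). *Ptx3*, whose upstream stretch is printed above, was at -1.28, while *Steap4* and *Saa3* were at 1.41 and 1.00, the latter with overlapping fractions and at 0.14 without the member richest in it.

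The 10 lowest were ranked among genes whose fractions did not overlap. Of these, the carboxypeptidase-like *Cpxm2* was at 343, 246 and 534 UPM in the WB1P and 19.5, 11.9, 8.44 and 16.9 in the WB1P-Myc fractions, a ratio of -4.84 (-6.52 to -3.54), with 60 UMIs against 5. *Col8a1*, a short-chain collagen, was at 1373, 1147 and 1883 UPM in the WB1P and 369.6, 334, 143 and 169 in the WB1P-Myc fractions, a ratio of -2.57 (-2.93 to -2.22), while in the myofibroblastic class it was -0.13. The secreted glutathione peroxidase *Gpx3* was at 2694, 2457 and 2009 UPM in the WB1P and 836, 179, 371 and 558 in the WB1P-Myc fractions, and *Cilp*, a matrix protein of cartilage and heart, at 713, 758 and 690.4 UPM in the WB1P and 224, 286, 186 and 101 in the WB1P-Myc fractions. The proteoglycan *Podn* (-2.16) and filamin C (*Flnc*, -2.02) completed the group along with *Has1*, *Il6* and *Socs3*. *Spp1*, the last, was at -2.16 in the members, but at 1.52 in the 20 members of the MiSeq tables, and -3.67 in the collagen-low cells. It was lower in the WB1P-Myc myofibroblastic class too, at 4653 UPM in WB1P and 1167 in WB1P-Myc. *Lcn2*, a gene of tumour cells and neutrophils, moved in the same way, at -4.50 (-7.65 to -2.45) in the members and -6.02 in the collagen-low cells, where it reached 2682 UPM in WB1P. The part of tumour cell RNA in these 2 genes was not tested.

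Of the lists, 5 of 16 measurable adventitial genes were 2-fold or more lower in WB1P-Myc and none higher, with a median of -0.62. The lower ones were *Has1*, *Ugdh*, *Gfpt2*, *Anxa3* (-1.84) and *Tnxb* (-1.15), whereas *Cd248* (0.60) was higher in every WB1P-Myc fraction and *Ly6a* stood at 0.35. Of 8 antioxidant and metal-binding genes 3 were lower and 1 higher, with *Gsn* at 2139, 2416 and 1836 UPM in the WB1P and 905, 489, 624 and 777 in the WB1P-Myc fractions, and *Prdx6* the higher one (1.19). The elastic fibre list had 2 of 10 genes lower and a median of -0.64, and the complement list 2 of 7 lower, among them *C4b* (-1.02), and 1 higher (*Saa3*). Of the lipid list *Cebpb*, *Cebpd* and *Apoe* (-1.09) were lower and *Fabp4* higher. The collagens had 3 of 17 lower, the proteoglycans 2 of 8, the immediate early genes 3 of 13, the proteases 2 of 18 and the parenchymal list 2 of 10, with 1 higher in the last. All 6 interferon and MHC class I genes and all 5 contractile genes were within 2-fold.

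**Figure D4:**
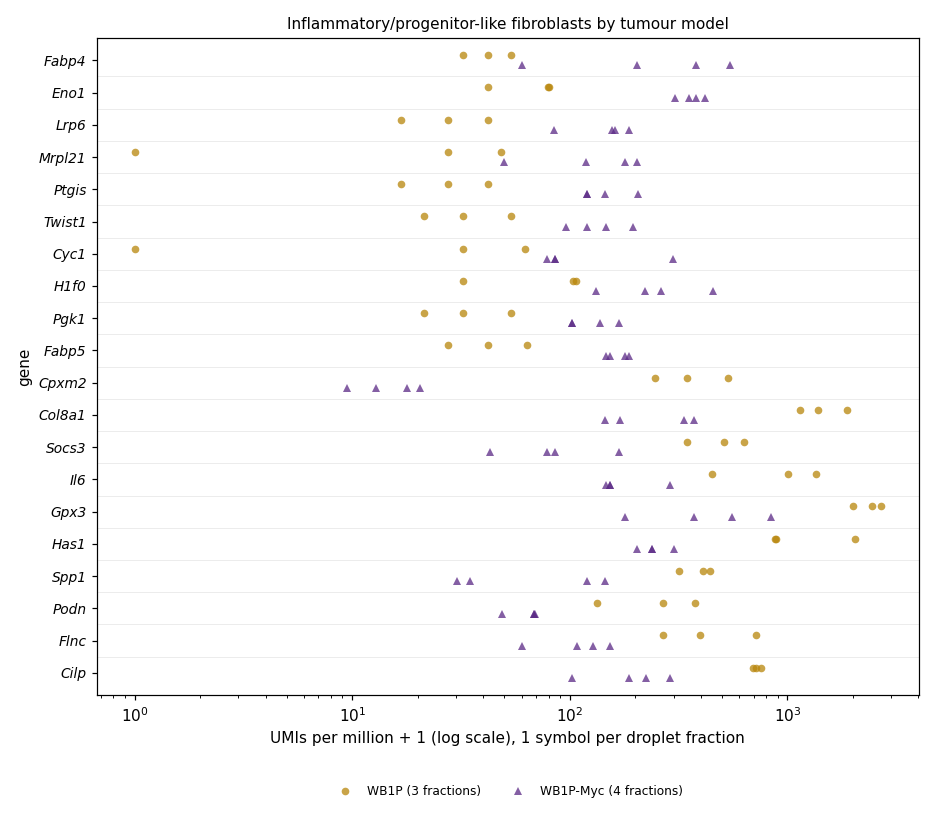
Levels in UPM plus 1 (log axis) of the 20 genes selected for the largest ratio between models with fractions that do not overlap, 1 symbol per fraction, in members of 3 WB1P (circles) and 4 WB1P-Myc fractions (triangles). *Has1* lies between 879 and 2034 in WB1P and between 203 and 302 in WB1P-Myc.

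The 10 genes highest in the WB1P-Myc relative to the WB1P members, among those whose fractions did not overlap, were mostly at low levels. *Fabp4* was at 52.8, 40.9 and 31.4 UPM in the WB1P and 379, 203, 59.1 and 541 in the WB1P-Myc fractions, a ratio of 2.73 (1.55 to 4.21), found in 33 members and at -0.97 in collagen-low cells. Prostacyclin synthase (*Ptgis*) was at 26.4, 40.9 and 15.7 UPM in the WB1P and 204, 119, 143 and 118 in the WB1P-Myc fractions, a ratio of 2.20 (0.89 to 3.88), and the mesenchymal transcription factor *Twist1* at 52.8, 20.5 and 31.4 UPM in the WB1P and 146, 95.4, 194 and 118 in the WB1P-Myc fractions, a ratio of 2.15 (0.84 to 3.83). *Lrp6*, a Wnt co-receptor, was at 26.4, 40.9 and 15.7 UPM in the WB1P and 156, 83.4, 160.3 and 186 in the WB1P-Myc fractions. In the myofibroblastic class the ratios were -0.73 for *Ptgis*, 0.00 for *Twist1* and 1.13 for *Lrp6*. When each cell was thinned to 1000 UMIs, the ratio of *Twist1* was 0.50. The others were the glycolytic enzymes *Eno1* (2.49) and *Pgk1* (1.95), the mitochondrial *Mrpl21* (2.27, and 0.15 in the MiSeq tables) and *Cyc1* (2.01, and 0.50 when thinned), the linker histone *H1f0* (2.00) and *Fabp5* (1.87). *Eno1* was at 79.2, 40.9 and 78.5 UPM in the WB1P and 350.1, 417, 379.7 and 304 in the WB1P-Myc fractions, and it reached 1249 UPM in WB1P-Myc and 947 in WB1P collagen-low cells. Each of these 10 genes rested on 4 to 11 UMIs in the WB1P members, so their intervals are wide. *Eno1* has a near-identical processed copy, and how the authors' counting divided reads between them was not given.

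Of 3 measurable genes of the Wnt list, 1 was 2-fold or more higher in WB1P-Myc and 2 were within 2-fold. This was *Sfrp4*, at 1.50, although the highest WB1P fraction was above 1 of the WB1P-Myc fractions, while *Dkk2*, below the minimum of 50 UMIs, was higher in every WB1P-Myc fraction (2.41, 0.75 to 4.75, on 3 and 38 UMIs). *Wnt5a*, also below it, was lower in every WB1P-Myc fraction (-3.76, -6.17 to -1.97, on 17 and 3 UMIs). *Top2a*, a proliferation gene, had 4 UMIs in WB1P and 71 in WB1P-Myc members (2.89), with fractions that overlapped. It stood at 180 and 649.7 UPM in the collagen-low cells of the 2 models. The ratio of *Igf1* was 0.36, of *Dcn* -0.09, of *Cxcl12* 0.11 and of *Lbp* -0.05, all within 2-fold.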

How the data were processed

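The authors made Drop-seq counts from 4 droplet fractions of 1 WB1P and 1 WB1P-Myc suspension and deposited, per fraction, whole-number UMI counts per gene for the 1000 largest barcodes, from HiSeq (used here) and MiSeq (an alternative). Of 1214 MiSeq barcodes kept, 16 were also kept in the HiSeq table of the same number, so the MiSeq tables may hold mostly other cells. Their processing notes name Scanpy and mm10, the methods Drop-seq tools. The HiSeq tables held 256985 to 4960334 UMIs each. Barcodes with 450 to 4000 genes and under 20% mitochondrial UMIs were kept.

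Groups and fractions came from the labels. Counts were summed per class, scaled to UMIs per 1000000 and compared as log2 ratios with exact conditional intervals (scipy 1.17.1). With 1 sample per model, no test was made. Genes needed 50 UMIs over both classes, and "higher" or "lower" means 2-fold or more. A gene at 0 was set to 3 counts, and ratios rest on no pseudocount otherwise. A gene with 1 or 2 UMIs in a class can thus rank ahead of a gene with none. *Flt1* and *Mcam*, with 1 member UMI each, did so over *Actg2*, and the order of the 15 highest and 15 lowest depends on this. Named genes were the 15 highest and 15 lowest against myofibroblastic fibroblasts with the same direction in both models, the 15 highest levels, the 10 highest over collagen-low cells, the 10 highest and 10 lowest between models without overlap of fractions, and genes of the lists. Mitochondrial, ribosomal, Gm and Rik genes and the genes of the rule were left out. A few genes of the lists are counted but not reported here by name. *Ptx3*, *Tnfaip6*, *Ugp2*, *Gfpt1*, *Cd44*, *Has3*, *Myc* and the genes compared by *Pi16*, *C3* or *Penk* were chosen after values were seen. The members and lists were chosen with earlier results of these data known.

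Alternatives were the MiSeq tables, other cell and count limits, thinning, edgeR 4.0.16 (TMM) and DESeq2 1.42.0 scaling factors, and leaving out fractions or members rich in other types' genes, the last added after seeing the data. Ratio code was tested on simulated data. Promoters came from RefSeq (GRCm38.p6).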

Additional observations from a re-analysis of the deposited data

Results flagged for a closer look

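Among the 4 WB1P-Myc fractions, 71 sets of member values of named genes were examined for 1 fraction far from the others (Dixon's criterion), and 7 were found. The criterion flags about 1 in 20 sets of normally distributed values. Sparse counts are not such values, so the number found cannot be set against that rate. In fraction 2, *Cyc1* was at 298 UPM (UMIs per 1000000) against 77.8 to 84.5 in the others, *Il6* at 286 against 146 to 152, *Inhba* at 203 against 0 to 33.8, and *Podn* at 47.7 against 67.5 to 68.1. *Tpm2* was at 101 in fraction 4 against 58.4 to 59.6. *Col7a1* was at 11.9 in fraction 2 and *Mcam* at 8.44 in fraction 3, each a single UMI, with 0 in the other fractions, a pattern that the criterion always flags.

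Barcodes above 4000 genes were outside the comparisons, and 11 of the 174 such barcodes met every other condition of the rule.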

How the results depend on the processing

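With the MiSeq tables, the members' share was 1.89% in WB1P and 1.52% in WB1P-Myc, 35 and 45 genes were higher and lower than in myofibroblastic fibroblasts, and 25 and 17 higher and lower in WB1P-Myc. *Spp1* there had a reversed ratio of 1.52 between models, on 20 members, and the cause was not tested. Thinning all cells to 1000 UMIs before selection gave a WB1P-Myc share of 2.06%. Keeping cells with 200 or more genes gave shares of 3.02% in WB1P and 2.79% in WB1P-Myc. Thinning members and myofibroblastic cells gave 124 and 84 genes between classes and 14 and 31 between models, from fewer UMIs. A minimum of 20 UMIs gave 623, 665, 432 and 213 genes, 200 UMIs gave 100, 60, 5 and 22, and no minimum 1533, 1537, 1371 and 754, in the same order. Leaving out members with a *Ptprc*, *C1qa*, *Epcam* or *Krt8* UMI left 46 genes lower in WB1P-Myc. WB1P cells alone gave 163 genes higher in members, and WB1P-Myc cells alone 177 lower. TMM scaling turned 304 and 277 into 369 and 192, and 83 and 80 into 66 and 91, and DESeq2 factors gave 372 and 190, 63 and 94.

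Leaving out 1 fraction at a time, the shares ranged from 4.07% to 4.88% and from 2.78% to 3.11%, the genes between classes from 245 to 301 and from 227 to 284, and those between models from 53 to 102 higher and from 57 to 82 lower, with 53 higher without either WB1P-Myc fraction 2 or fraction 3. Of 715 values of named genes between classes under all alternatives, 682 moved by less than the SD over fractions, 33 by more and 0 reversed, and of 413 between models 401 moved by less, 11 by more and 1 reversed (*Spp1*). These tallies include values that could move little or not at all. The count minimums leave every ratio as it was, and TMM and DESeq2 factors shift all ratios of a comparison by 1 amount. The SD is also a loose measure, since *Mrpl21*, at 2.27 and then 0.15, counted as moved by less. *Flt1* (-0.30), *Col7a1* (-0.53) and *Mrpl21* (0.15) in the MiSeq tables and *Twist1* and *Cyc1* (0.50 each) after thinning came under 2-fold. No paired analysis was possible because no result came from a test. Between models, equal numbers only name fractions of separate suspensions, and classes of the same fraction were compared by direction alone. At 3 to 11 WB1P UMIs, ratios between models are imprecise.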
